A study of Rattus norvegicus with 6 samples.

Results

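Neurofilament, stathmin and growth-associated genes were followed in cultured rat heart muscle cells after transfection with an siRNA against uc.323, a transcribed ultraconserved region of the genome. The group was listed by name as Nefl, Nefm, Nefh, Ina, Prph, Stmn1, Stmn2, Stmn3, Stmn4 and Gap43. Its members were found on the array through the RefSeq transcript given for each probe. Probes were found for 9 of the 10 genes, 10 probes in all, out of 15168 named genes on the array, and no probe was matched to Stmn3. The members were chosen by name with results of the same comparison, the log2 differences between si-uc.323 and si-scramble, already known, so the group differences below describe the members, their p-values are those of the fit over all features, and a count of members that passed supports nothing by itself.

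Gene expression was measured on 1-colour arrays. The cells were primary heart ventricle myocytes taken from Sprague-Dawley pups that were labelled as male and aged 1 to 2 days. The tested cultures received si-uc.323 at 50 nmol/L (n = 3), and the control cultures received a scrambled siRNA, si-scramble, at the same dose (n = 3). Cells of both groups were preplated to remove fibroblasts, kept in bromodeoxyuridine, cultured for 36 h, exposed to siRNA with a lipid reagent for 3 h and starved of serum for a further 21 h, and RNA was taken 24 h after transfection. The samples were described as independent experiments without naming litters, and the p-values below reflect how far these 6 samples vary, which may be technical in part. The level of uc.323 itself was not analysed here, so the knockdown was not checked. The siRNA sequence is shown because it defines the tested cultures; the labels add a dTdT overhang.
si-uc.323: gguaaguaauuucagcaau

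Neurofilaments are the intermediate filaments of axons and are built from a light (Nefl), a medium (Nefm) and a heavy (Nefh) subunit, joined by alpha-internexin (Ina) or, in peripheral neurons, by peripherin (Prph). Stathmins bind free tubulin and favour the shortening of microtubules; Stmn1 is found in many dividing cells, whereas Stmn2 (SCG10), Stmn3 (SCLIP) and Stmn4 (RB3) are mainly neuronal. Gap43 is a membrane phosphoprotein of growing axon tips. Heart tissue holds autonomic nerve fibres and neurons, and dissociated ventricle can carry some of their cells into culture.

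The arrays were not alike in brightness. By the identifiers of the scans, si-uc.323 replicate 1 was on slide 1 with the 3 si-scramble arrays, while slide 2 held the other si-uc.323 arrays, replicates 2 and 3. Between 71.8% and 73.9% of probes were well above background on the slide 1 arrays, and 78.2% and 86.5% on the slide 2 arrays. Slide and group are therefore partly confounded, and values within slide 1 are given beside the genes that passed. On slide 1 si-uc.323 is represented by 1 array, and 0 of 11580 genes passed there (limma; 3639 had an unadjusted p under 0.05), so a gene that did not pass on slide 1 shows nothing by that, and only the size of its value is to be read. Values are log2 intensities relative to the 75th percentile of the array, and a value of one probe cannot be set against that of another. The culture expressed myocyte markers: all 7 markers with a probe (of 8 listed) were well above background on all 6 arrays. Their summed level, in multiples of the array's 75th percentile, was 127 to 155 with si-uc.323 and 139 to 150 with si-scramble. None of the 7 passed, and the median log2 fold change was -0.24. An unadjusted p under 0.05 (limma) was held by 3 of the 7, and by 3481 of all 11580 named genes in the fit of 6 arrays. Those 3, named after their values were seen, were lower with si-uc.323: Ryr2 (-0.46), Nkx2-5 (-0.36) and Tnni3 (-0.34). Of the 7 markers, 3 had a positive value. All 8 fibroblast markers were also above background on every array, with a summed level of 126 to 157 with si-uc.323 and 124 to 134 with si-scramble. In such bulk samples fewer cells of a type and less RNA per cell cannot be told apart.

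A limma fit (two-sided) over 19920 features, which held 11580 named genes, gave 2 members with an adjusted p under 0.05, Nefm and Stmn2, both higher with si-uc.323. These were 2 of the 7 members with a tested probe, and of 10 listed. Over all named genes 6.14% were called, 3.26% higher and 2.88% lower. An unadjusted p under 0.05 (limma) was held by 3481 of the 11580, which is the background for such counts in the lists below. The groups did not overlap for 2 of the 7 tested members, both with si-uc.323 higher, while among all tested genes they did not overlap for 20.1% in that direction, 19.0% in the other and 39.1% in either. The other 5 tested members (Nefh, Ina, Prph, Stmn1 and Gap43) did not pass, and Nefl, Stmn4 and Stmn3 were not tested. The split of all called genes by direction depended on scaling: 53.0% were higher with the 75th percentile, against 35.6% when arrays were shifted to their medians, where the median log2 fold change of all named genes was -0.08 rather than 0.02. Nefm and Stmn2 kept a positive sign under that shift.

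**Figure D1:**
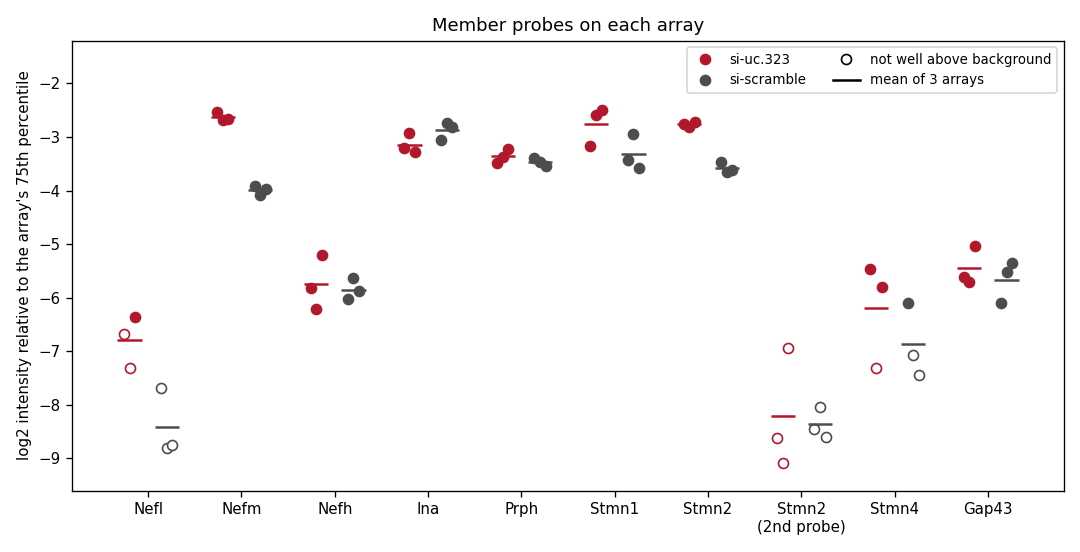
Each probe of the 9 members on each array, as log2 intensity relative to the array's 75th percentile, with si-uc.323 left of si-scramble and bars at the mean of 3 arrays; open points were not well above background. Nefm and the tested Stmn2 probe separate the groups with filled points throughout, whereas Nefl separates them mostly with open points. Heights of different probes are not comparable.

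Nefm, the medium neurofilament subunit whose long tail sets the spacing between filaments, had the widest difference of the tested members. Its values were -2.54, -2.68 and -2.66 on si-uc.323 replicates 1, 2 and 3, against -3.91, -4.08 and -3.98 on si-scramble replicates 1, 2 and 3. The 3 si-uc.323 arrays lay close together and well above the 3 si-scramble arrays, with no overlap. In processed intensity units the means over spots were 207, 268 and 282 with si-uc.323 and 79.9, 81.9 and 75.1 with si-scramble. The log2 fold change was 1.36 ± 0.11 (SE, n = 3 and 3 arrays; limma adjusted p = 0.0088), or 2.57-fold. By size it stood 51st among the 11580 genes.

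The Nefm probe was printed as 10 spots per array, which shows its technical error on each array. With si-uc.323 the spots ran from 191 to 234 on replicate 1 (10 spots), from 260 to 279 on replicate 2 (9 spots) and from 273 to 307 on replicate 3 (10 spots). With si-scramble they ran from 77.4 to 83.2 on replicate 1 (8 spots), from 74.8 to 90.1 on replicate 2 (10 spots) and from 66.6 to 80.2 on replicate 3 (10 spots). The dimmest spot of any si-uc.323 array was therefore brighter than the brightest of any si-scramble array. The coefficient of variation between spots was 2.11% to 6.20% per array, so the reading of Nefm on each array was precise. Spots on an array share 1 RNA sample and do not add replicates.

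**Figure D2:**
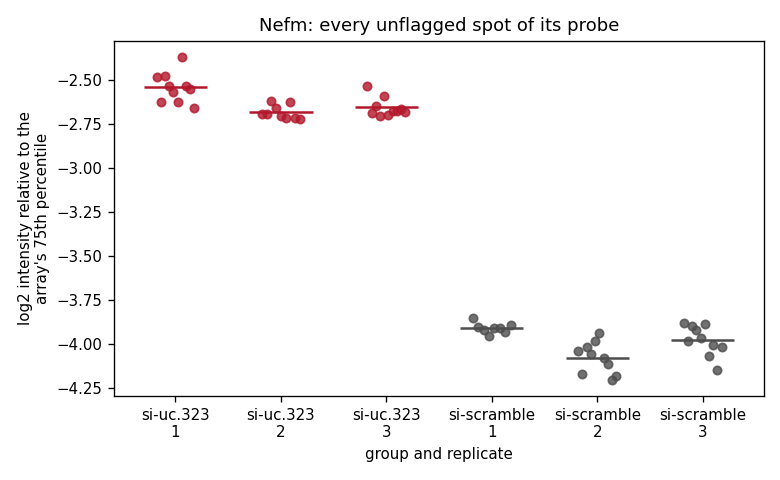
Every unflagged Nefm spot on each array, as log2 intensity relative to the array's 75th percentile, with a line at the array mean. The si-uc.323 spots on the left lie above all si-scramble spots, on slide 1 (si-uc.323 replicate 1) as on slide 2.

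Against the 3 si-scramble arrays of the same slide, si-uc.323 replicate 1 alone gave a log2 fold change of 1.45 for Nefm (limma adjusted p = 0.0636). Blocking on the slide gave the same 1.45 by construction, since slide 2 held no si-scramble array (limma adjusted p = 0.0731). The call was lost without si-scramble replicate 1 (1.40, adjusted p = 0.0575) or replicate 3 (1.37, adjusted p = 0.0839), and when dim probes were kept in the fit (adjusted p = 0.0643). With normexp background correction, which adds an offset of 50 to each intensity, Nefm read 0.81 and passed (adjusted p = 0.0127).

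Nefl, the light subunit needed to assemble filaments with Nefm, is the protein-coding gene next to Nefm on chromosome 15 in assembly GRCr8. Its probe read -6.68, -7.30 and -6.36 on si-uc.323 replicates 1, 2 and 3, against -7.68, -8.80 and -8.75 on si-scramble replicates 1, 2 and 3. All si-uc.323 values lay above all si-scramble values, but the probe was well above background on only 1 array, si-uc.323 replicate 3. On si-scramble replicates 2 and 3 the scanner software did not mark the spot as significantly above 0. Nefl was not tested for that reason, and no fold is given, because the si-uc.323 mean did not exceed the lowest level measurable on the si-scramble arrays. Of the flanking genes, looked at after the Nefm values were seen, Gnrh1 (-0.35 ± 0.12, adjusted p = 0.124) and Adam7 (-0.03 ± 0.12, adjusted p = 0.895) did not pass (SE, same fit).

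Nefh, the heavy subunit of mature axons, read -5.81, -6.22 and -5.21 on si-uc.323 replicates 1, 2 and 3, against -6.03, -5.63 and -5.88 on si-scramble replicates 1, 2 and 3. Its si-uc.323 values spanned more than its si-scramble values and enclosed them. Nefh was above background on all 6 arrays but close to it. Its intensities were 21.5, 23.1 and 48.1 on si-uc.323 replicates 1, 2 and 3, and 18.4, 27.8 and 20.0 on si-scramble replicates 1, 2 and 3. The log2 fold change was 0.10, with an unadjusted 95% interval of -0.49 to 0.70 (adjusted p = 0.821), and its sign depended on the scaling and on background correction (-0.22 with normexp).

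Ina, alpha-internexin, was the tested member with a negative value. It read -3.21, -2.92 and -3.29 on si-uc.323 replicates 1, 2 and 3, against -3.06, -2.73 and -2.82 on si-scramble replicates 1, 2 and 3. The groups overlapped through si-uc.323 replicate 2. The log2 fold change was -0.27 (95% interval -0.61 to 0.08, adjusted p = 0.277). Prph, peripherin, read -3.49, -3.37 and -3.21 on si-uc.323 replicates 1, 2 and 3, against -3.39, -3.47 and -3.54 on si-scramble replicates 1, 2 and 3. The groups overlapped, with a log2 fold change of 0.11 (95% interval -0.17 to 0.38, adjusted p = 0.602). The Nefm value of 1.36 lay outside the intervals of Prph, Nefh and Ina, of which Nefh was read close to background.

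Stmn2, the neuronal stathmin of growth cones, was the other called member. Its tested probe read -2.76, -2.81 and -2.72 on si-uc.323 replicates 1, 2 and 3, against -3.47, -3.65 and -3.61 on si-scramble replicates 1, 2 and 3. The groups did not overlap. The log2 fold change was 0.81 ± 0.11 (SE, n = 3 and 3 arrays; limma adjusted p = 0.0202), or 1.75-fold. A further Stmn2 probe, designed on the same transcript, was not well above background on any array and read -8.62, -9.08 and -6.94 on si-uc.323 replicates 1, 2 and 3, against -8.46, -8.03 and -8.60 on si-scramble replicates 1, 2 and 3. The Stmn2 call thus rests on 1 of 2 probes, and the other gave no reading to set beside it.

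On slide 1 alone Stmn2 read 0.81 (limma adjusted p = 0.0657), and in the fit with slide as a block it had an adjusted p of 0.156. Leaving out si-scramble replicate 1, 2 or 3 gave 0.86, 0.77 and 0.79 with adjusted p of 0.101, 0.0913 and 0.129. With normexp the value was 0.38 (adjusted p = 0.0707), and with dim probes kept the adjusted p was 0.0884.

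**Figure D3:**
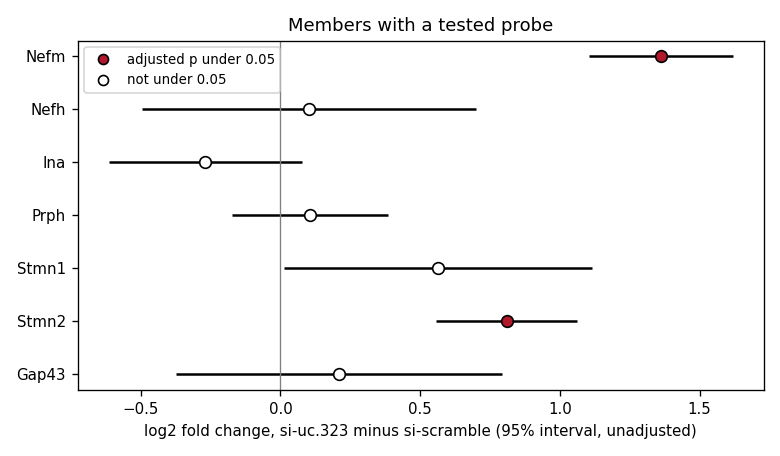
Log2 fold change of si-uc.323 minus si-scramble for the 7 tested members, with unadjusted 95% intervals; filled points had an adjusted p under 0.05 over all features. Nefm (1.36) and Stmn2 (0.81) are filled, and the intervals of Nefh, Ina, Prph and Gap43 include 0.

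Stmn1, the stathmin of dividing cells, had values of -3.17, -2.58 and -2.50 on si-uc.323 replicates 1, 2 and 3, against -3.42, -2.94 and -3.58 on si-scramble replicates 1, 2 and 3. Both si-uc.323 arrays of slide 2 were above all si-scramble arrays, while replicate 1 on slide 1 lay within their range. The difference, 0.56 ± 0.23 in log2 units (SE, n = 3 and 3), did not pass (limma adjusted p = 0.17), with an unadjusted 95% interval of 0.01 to 1.11, and within slide 1 it was 0.14. Stmn4 read -5.47, -7.31 and -5.80 on si-uc.323 replicates 1, 2 and 3, against -6.10, -7.08 and -7.44 on si-scramble replicates 1, 2 and 3. It was well above background on 2 of 3 si-uc.323 arrays and 1 of 3 si-scramble arrays, so it was not tested.

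Gap43 was above background on all 6 arrays but close to it, with intensities of 24.6, 33.0 and 53.9 on si-uc.323 replicates 1, 2 and 3 and of 17.5, 29.9 and 28.9 on si-scramble replicates 1, 2 and 3. On the shifted log2 scale it read -5.61, -5.70 and -5.04 with si-uc.323 and -6.10, -5.53 and -5.36 with si-scramble. The groups overlapped, and the log2 fold change was 0.21 (95% interval -0.37 to 0.79, limma adjusted p = 0.621). Members differed in precision. The pooled SD within groups was 0.08 for Nefm and 0.07 for Stmn2, against a median of 0.17 over named genes. It was 0.39 for Nefh, 0.37 for Gap43 and 0.35 for Stmn1, for which only larger differences could pass.

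Promoter windows of 250 bases before to 50 after the start site, from RefSeq on build GRCr8, were matched for 4 of 10 members, Ina, Prph, Stmn1 and Stmn3. That of Stmn1 is shown because this gene is read below beside the proliferation genes, and that of Prph as a neuronal filament gene with no call. Capitals mark the motifs searched on both strands: the TATA motif is written TATAAA, the E2F motif is written TTTGGCGC, the E-box is written CACGTG, and the GC box is written GGGCGG.
Stmn1, chr5:151964929-151965228, plus strand: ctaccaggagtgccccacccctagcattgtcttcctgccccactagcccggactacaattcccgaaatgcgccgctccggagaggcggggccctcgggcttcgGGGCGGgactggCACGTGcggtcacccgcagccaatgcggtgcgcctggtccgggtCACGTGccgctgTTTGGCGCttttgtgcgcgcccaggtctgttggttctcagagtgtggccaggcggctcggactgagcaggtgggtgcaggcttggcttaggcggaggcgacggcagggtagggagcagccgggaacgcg
Prph, chr7:132097039-132097338, plus strand: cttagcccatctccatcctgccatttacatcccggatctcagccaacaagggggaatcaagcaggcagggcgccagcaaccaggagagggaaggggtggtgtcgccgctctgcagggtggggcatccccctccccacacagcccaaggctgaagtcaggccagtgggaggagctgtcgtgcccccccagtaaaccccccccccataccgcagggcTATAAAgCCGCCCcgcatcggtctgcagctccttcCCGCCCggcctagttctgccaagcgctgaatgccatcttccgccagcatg
The Stmn1 window held TTTGGCGC at 79 bases before the start site, as did 0.493% of 33469 windows of this length, and held CACGTG at 2 places (6.42% of windows held it). The Prph window held TATAAA at 35 bases before the start site (14.2% of windows). GGGCGG or its complement lay in both windows, as in 33.1% of all. None of the marked motifs overlapped another, and a match describes the letters and not a site in use.

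Stathmins bind free dimers of tubulin. Of 13 tubulin genes tested, 1 rose and 1 fell, where 6.14% of all named genes were called, with a median log2 fold change of 0.22 against 0.02 over all named genes. Tubb6, a broadly expressed beta-tubulin, rose by 0.59 ± 0.13 (SE, limma adjusted p = 0.0448), and no longer passed when arrays were shifted to their medians (0.49, adjusted p = 0.0553). Tuba8, an alpha-tubulin of heart, muscle and testis, was lower by -1.56 ± 0.25 (adjusted p = 0.0267). Tubb3, the neuronal beta-tubulin, read 0.25 ± 0.12 (adjusted p = 0.221), Tuba1a 0.37 ± 0.12 (adjusted p = 0.0975) and Tuba4a -0.34 ± 0.11 (adjusted p = 0.0985). On slide 1 alone Tubb6 read 0.41 and Tuba8 -1.18.

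Among 11 tested microtubule-associated proteins and collapsin response mediators, 1 fell and none rose, with a median of -0.17. Over all named genes 2.88% were called lower. Mapt, the microtubule-binding protein tau, was at -2.06, -2.01 and -2.15 on si-uc.323 replicates 1, 2 and 3, against -1.38, -1.23 and -1.35 on si-scramble replicates 1, 2 and 3. The groups did not overlap, the log2 fold change was -0.76 ± 0.11 (SE, limma adjusted p = 0.022), and the other tested Mapt probe read -0.74 without passing (adjusted p = 0.0661 in a fit of every probe). On slide 1 alone Mapt read -0.74. Map1b, which binds microtubules in growing axons, read 0.34 ± 0.13 (adjusted p = 0.145) and Dpysl3 0.31 ± 0.21 (adjusted p = 0.368). Mapre2 read -0.28 (adjusted p = 0.147) and Map4 -0.29 (adjusted p = 0.171), its other probe being positive at 0.19.

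None of the 8 tested intermediate filament genes outside the group passed in either direction (limma), and their median was 0.14. Of the 8, 4 had an unadjusted p under 0.05 (limma), as did 3481 of all 11580 named genes. Vim, vimentin of mesenchymal cells, read 0.47 ± 0.17 (adjusted p = 0.132), Lmnb1 of the nuclear lamina 0.34 (adjusted p = 0.167), Synm -0.37 (adjusted p = 0.146, and 0.22 on its other probe) and Des, the desmin of muscle, 0.06 ± 0.14 (adjusted p = 0.816). Nes, nestin of progenitor cells, read -0.52 ± 0.14 (adjusted p = 0.0738) on its brighter probe and 0.00 on the other. Growth cone and calmodulin-binding membrane proteins gave no call among 7 tested (limma), with a median of -0.08. Of these 7, 1 had an unadjusted p under 0.05 (limma). There Basp1, which shares the membrane effector role of Gap43, read -0.08 ± 0.13 (adjusted p = 0.714), and Cap2, an actin-binding protein, 0.55 ± 0.15 (adjusted p = 0.068). Enah read -0.26 (adjusted p = 0.321) and Nrgn, a calmodulin-binding relative of Gap43, -0.26 (adjusted p = 0.609).

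Of 12 genes of nerve regeneration and neurotrophin signalling reported here, none passed in either direction (limma; 4 had an unadjusted p under 0.05), with a median of 0.03. Npy, a peptide of sympathetic neurons, read -0.59 ± 0.15 (SE, adjusted p = 0.0642, and its other probe -0.25), Sox11, a transcription factor of axon regrowth, 0.62 ± 0.22 (adjusted p = 0.132, and 0.18 within slide 1) and Gdnf, a glial neurotrophic factor, 0.45 ± 0.12 (adjusted p = 0.0716). Gdnf was read close to background, at a mean of -5.30 with si-uc.323 and -5.75 with si-scramble, and its sign changed under normexp. Npy passed under 6 of 17 alternative settings. REST, the repressor of neuronal genes in other cells, showed no call: Rest itself read 0.01 ± 0.16 (adjusted p = 0.971), and none of the 6 tested genes of its list passed (limma; 0 had an unadjusted p under 0.05). Its partners Kdm1a (0.30), Rcor2 (0.15), Rcor3 (-0.14) and Ehmt2 (-0.04) had adjusted p between 0.352 and 0.841.

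Proliferation genes are given because Stmn1 is known for its level in dividing cells. Of 13 tested, 6 rose and none fell, where 3.26% of all named genes were called higher and 2.88% lower. The list median was 0.59, against 0.02 over all named genes. Ccnb1 rose by 1.12 ± 0.12 (SE, limma adjusted p = 0.0172), Ccna2 by 0.89, Ccnb2 by 1.104 and Cdk1 by 0.59, each a driver of the cell cycle. Within slide 1 these 4 genes read 1.11, 0.95, 1.23 and 0.62, where Stmn1 read 0.14. Without si-scramble replicate 1, 2 or 3, none of the 7 called genes named from the related lists (these 4, Tubb6, Tuba8 and Mapt) passed, with adjusted p between 0.0776 and 0.192. Mki67 was not analysed here.

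**Figure D4:**
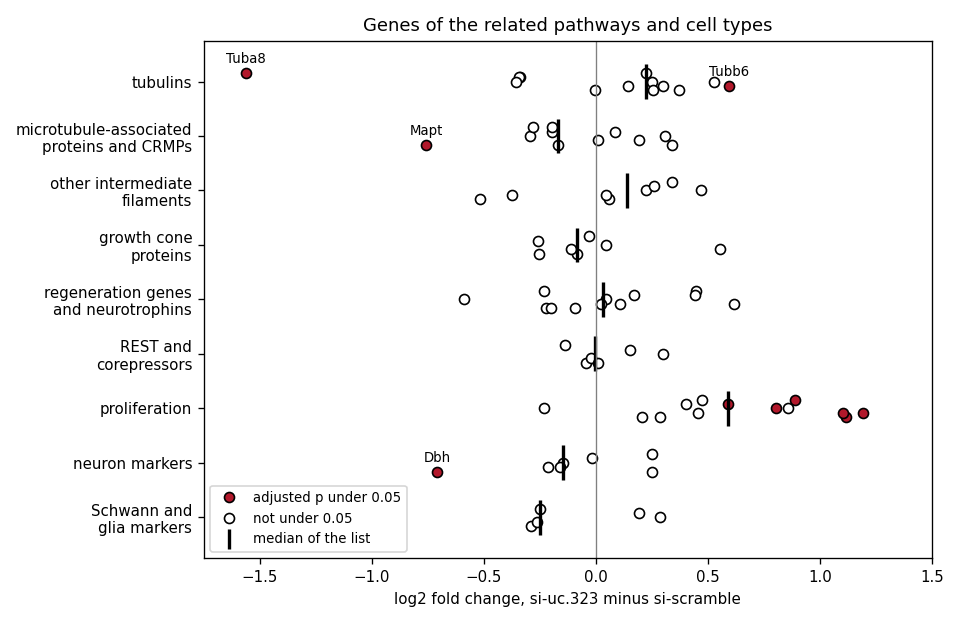
Log2 fold change of si-uc.323 minus si-scramble for the genes reported from 7 related gene lists and 2 marker lists; bars mark the list median and filled points an adjusted p under 0.05. The proliferation list lies mostly above 0, while Mapt, Tuba8 and Dbh are filled below 0 and Tubb6 above.

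Markers of neurons and glia were read beside Nefm and Stmn2. Of 14 neuron markers 11 had a probe, 7 were above background on all 6 arrays and 2, Syt1 and Chga, on none. The summed level of the 11 neuron markers with a probe, tested or not, was 6.34 to 7.74 with si-uc.323 and 7.60 to 8.08 with si-scramble. Over the 7 tested markers Uchl1 made up 73.9% to 76.3% of the sum with si-uc.323 and 76.2% to 77.3% with si-scramble. Such a share is of summed signal and not of transcripts, because values of different probes cannot be compared. Without Uchl1 the sums of these markers were 1.65 to 1.95 with si-uc.323 and 1.74 to 1.86 with si-scramble. Of 7 tested, 1 fell and none rose (median -0.15), where 2.88% of all named genes were called lower. Dbh, the enzyme that makes noradrenaline, was lower by -0.71 ± 0.11 (SE, limma adjusted p = 0.0261; -0.72 within slide 1) and was named after its value was seen. The sympathetic enzyme Th read 0.25 (adjusted p = 0.407) and Uchl1 -0.16 (adjusted p = 0.442). Of 8 Schwann cell and glia markers 5 were tested and none passed (limma; 1 had an unadjusted p under 0.05), with a median of -0.25. The summed level of the 7 glia markers with a probe, tested or not, was 1.07 to 1.20 with si-uc.323 and 1.11 to 1.52 with si-scramble. The ranges of the groups overlapped for both lists.

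Of the 6 marker lists, only the endothelial one had sums that did not overlap between groups. The summed endothelial level was 5.51 to 8.55 with si-uc.323 and 11.0 to 12.4 with si-scramble, over 4 of 5 markers with a probe. Kdr, the endothelial VEGF receptor, made up 85.2% to 90.6% of that summed signal with si-uc.323 and 88.3% to 92.4% with si-scramble, again not a share of transcripts. Without Kdr the sums overlapped (0.769 to 1.09 with si-uc.323 and 0.943 to 1.29 with si-scramble). Kdr read -0.76 (adjusted p = 0.068), Pecam1 -0.30 and Cdh5 -0.10, while Tek was positive at 0.46 (adjusted p = 0.165). These 4 genes are named after their values were seen. None of the 4 passed (limma; 2 had an unadjusted p under 0.05). Smooth muscle and pericyte markers summed to 34.4 to 41.5 with si-uc.323 and 33.2 to 37.4 with si-scramble, and none of 5 passed (limma; 2 had an unadjusted p under 0.05). Of the 8 fibroblast markers 1 rose, where 3.26% of all named genes were called higher. It was Postn (0.69 ± 0.12, SE, limma adjusted p = 0.0312, and 0.67 within slide 1), named after its value was seen. The part of these cells in the Nefm and Stmn2 values was not tested.

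Across the 6 arrays Nefm and Stmn2 were the closest pair of members (Pearson r = 0.994, n = 6 arrays, a description only, since both carry the group difference). Nefm correlated with Stmn1 at 0.64, with Nefh at 0.14 and with Ina at -0.72. The 3 named genes with the pattern most like Nefm were Prim1, Prdx4 and Icmt (each r = 0.996), and 713 named genes had an r above 0.9. Those most like Stmn2 were Icmt, Pdia6 and Nsun6 (r = 0.996 to 0.998). For Stmn1 they were RT1-CE4, Clic2 and Pawr (r = 0.995 to 0.998), none of which passed. For the other members with no call they were Rnaset2, Ralgdsl3 and Slc13a2 (Ina), Nkx2-6, Mtx2 and Zfp637 (Prph), Mbtps2, Zbtb37 and Bmpr2 (Nefh) and Snapc2, Chml and Kdm3a (Gap43). The part of the slide in these correlations was not tested.

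**Figure D5:**
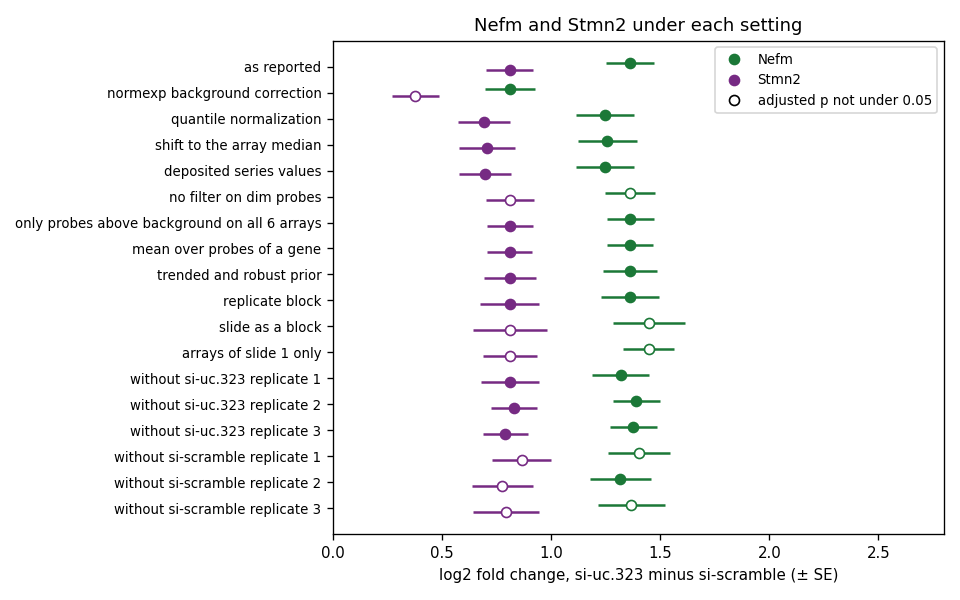
Log2 fold change of Nefm and Stmn2, with SE, in the reported fit and under each of 17 alternative settings; open points did not pass. Nefm lies between 0.81 and 1.45 and Stmn2 between 0.38 and 0.86, with the lowest value of each under normexp background correction.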

How the data were processed

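Cy3-labelled RNA of 6 cultures was read on Agilent 1-colour arrays, whose design is 028282 per the file headers. The deposited scanner files, give an intensity per spot that the authors' software had background-subtracted and detrended within the array (per the submitters' processing notes, the software was Agilent Feature Extraction 11.0.1.1). The deposited matrix of the series holds log2 values of unstated normalization. They correlated at 0.995 to 0.9995 with the scanner values and had a median of 6.52 in all 6 columns, and were used as an alternative.

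Control spots and flagged outliers (322 to 594 of 42877 spots) were left out, log2 intensity was shifted by each array's 75th percentile (1182 to 1775 units), and replicate spots were averaged per probe. A probe was kept where at least 1 group had it well above background on every array, and no spot was saturated. Names came from RefSeq transcripts of assembly GRCr8 (18005 of 30367 probes had 1 gene, 12362 none); the headers place the design on build rn4. The brightest probe stood for a gene. limma 3.58.1 in R 4.3.3 (package data.table, version 1.17.8) compared groups without covariates, with Benjamini-Hochberg adjustment over 19920 features and a threshold of 0.05; the fit was tested on simulated data. Slides were read from scan identifiers. Figures used matplotlib 3.10.9 in Python 3.11.15.

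Members and lists were chosen with earlier results of these data known. Named were all members, up to 4 genes of each related list with the lowest adjusted p, a few fixed genes, and the 3 genes closest in pattern to each member above background on all arrays. Of that choice, 1 gene of the nerve regeneration list is not reported here. The alternatives were normexp correction, a shift to the median, quantile normalization, the deposited matrix, other filters on dim probes, the mean over probes, a trended and robust prior, blocks, slide 1 alone, and leaving out each array.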

Additional observations from a re-analysis of the deposited data

How the results depend on the processing

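The 711 genes and 2 members called in the reported fit were counted again under 17 alternatives, with the tested probes kept fixed when an array was left out. The count of genes was 0 with dim probes kept (3110 at an unadjusted p under 0.05), 1172 with a trended and robust prior, 404 with the replicate block, 3 with the slide as a block, 0 on slide 1 alone (3639 at an unadjusted p under 0.05) and 0 to 1859 when 1 array was left out (limma). The lowest were 0, 12 and 0 without si-scramble replicates 1, 2 and 3. The count of members was 1 with normexp, 0 with dim probes kept, 0 with the slide as a block, 0 on slide 1 alone and 0 to 2 when 1 array was left out. Nefm and Stmn2 kept an unadjusted p under 0.05 in all of these. Nefm passed in 12 and Stmn2 in 10 of the 17, both with a positive sign in all 17. The cause of the lost calls was not tested. Keeping dim probes raised the number of genes tested to 15157, and leaving out 1 array of either group lowered the residual degrees of freedom. Without si-uc.323 replicate 1, 2 or 3 the fit called 451, 1859 and 292 genes (limma), and both members passed each time. A kept sign is no independent check, since the same arrays made the calls. No pairing by replicate number was clear: same-numbered deviations correlated at 0.20, 0.39 and -0.12, and 1 of 3 arrays correlated best with its own number. That check cannot exclude pairing, because the si-uc.323 deviations also hold the difference between slides. With the replicate block, Nefm and Stmn2 still passed, and Tubb6 (adjusted p = 0.0620) and Cdk1 (adjusted p = 0.0615) no longer did (limma).

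Of the gene values under the alternatives, 547 kept their direction and side of the threshold, 71 no longer passed, 14 newly passed and 31 changed sign, all of the last for genes that had not passed. Under normexp the sign changed for Nefh (-0.22), Gap43 (-0.12), Gdnf (-0.10), Rcor2 (-0.10), Dpysl3 (-0.0071) and Rest (-0.16). Under quantile normalization it changed for Nefh (-0.0079), Prph (-0.017) and Rest (-0.13), on the series values for Nefh (-0.0043), Prph (-0.016) and Rest (-0.13), and with the median shift for Nefh (-0.0013), Des (-0.047) and Rest (-0.093). With the slide as a block, and equally on slide 1 alone, it changed for Prph (-0.025), Rcor2 (-0.11) and Ehmt2 (0.028). Leaving out 1 array gave -0.17 to 0.34 for Nefh, -0.010 to 0.36 for Gap43, -0.16 to 0.026 for Basp1, -0.051 to 0.28 for Rcor2, -0.088 to 0.039 for Ehmt2, -0.035 to 0.13 for Des and -0.088 to 0.16 for Rest. Signal over background limits Nefl, Stmn4 and the other Stmn2 probe, and also Nefh, Gap43 and Gdnf, which were tested but close to background. The number of arrays limits all values.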
